A study of Mus musculus with 9 samples.

Results

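The integrin and laminin genes of the mouse colon were examined, 36 genes matched by symbol of the 21498 symbols listed, of which 26 encode integrin chains and 10 encode laminin chains. The 2 rows named Itgam were summed. The list was drawn up by gene family, but with earlier results of these data known. Its gamma chains were Lamc1 and Lamc3. RNA was sequenced from colon tissue of 9 male ICR mice, an outbred strain, in 3 groups of 3. Control mice received neither AOM/DSS nor an antibody. The AOM/DSS + IgG Ab mice were injected with 10 mg/kg AOM (azoxymethane, a carcinogen of the colon), drank DSS (dextran sulfate sodium, which injures the colon epithelium) in 3 cycles, and were given 1.5 mg/kg of a control IgG every other day during these cycles. The AOM/DSS + anti-S100a9 Ab mice had the same AOM and DSS, with 1.5 mg/kg of a polyclonal rabbit antibody against S100a9, a calcium-binding protein of myeloid cells. DSS was given at 2% for 7 days in the first cycle and at 1.5% for 5 days in each later one. All mice were 5 weeks old at the start, and tissue was taken at the end of week 18. The sample labels call the Control tissue normal colorectal mucosa and the tissue of both AOM/DSS groups colorectal adenocarcinoma. The study's own text also speaks of mucosa for the anti-S100a9 Ab group. The share of tumor in each piece of tissue is not given in the sources used here, so tissue makeup and antibody cannot be told apart in this comparison. AOM/DSS and the IgG antibody were given together, and the labelled tissue also differed from that of Control. The parts of AOM/DSS, antibody and tissue in a difference from Control cannot be told apart either.

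Integrins are receptors of the cell surface made of an alpha chain paired with a beta chain. They bind proteins of the extracellular matrix or of other cells, and link them through talin and kindlin to the actin cytoskeleton. Laminins are cross-shaped glycoproteins assembled from an alpha, a beta and a gamma chain, and they form much of the basement membrane, the thin sheet under the colon epithelium and around muscle cells, vessels and nerves. Epithelial cells hold on to laminin through integrins, and leukocytes use integrins of their own to leave the blood and settle in the gut wall.

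Values are deposited as decimals that look like FPKM, a read level corrected for library size and for the length of the transcript. Read numbers are not given, so the precision of a value rests on the spread between mice. Sums over all genes were 308377 to 408811 FPKM per sample. The housekeeping genes Gapdh, Ppia and Rps18 reached only 0.755, 0.974 and 0.391 FPKM, so an exact 0 or a low value in these files can be a failed estimate. This limit also holds for low values of the listed genes, such as Lama1 and Itgb8 in Control and Lamc3 in IgG Ab. Epithelial markers (8 genes summed, among them Epcam and Krt8) lay between 3700 and 5419 FPKM in all 9 samples. Most of this sum was Krt19 and Krt8, and it hides other members. Group means in Control, IgG Ab and anti-S100a9 Ab were 220, 508.6 and 183.4 FPKM for Krt18 and 269.5, 158.5 and 307.4 for Krt20. By the test below, Krt18 alone of the 8 was called, in both comparisons with IgG Ab. Adipocyte markers (4 genes summed) were at 34.85 to 153.8 FPKM in Control, 0 to 13.82 in IgG Ab and 0.09441 to 1.216 in anti-S100a9 Ab. Tests used limma on log2(FPKM + 0.1) over 15278 genes that reached 0.1 FPKM in 3 or more samples, and a gene was called where its Benjamini-Hochberg adjusted p was under 0.05. Of the 36 genes, 35 passed this filter. Itgad, a leukocyte alpha chain, did not, and its highest value was 0.151 FPKM. A log2 difference on this scale understates the change of genes near 0.1 FPKM. In tissue of mixed cells, fewer cells of a type and less RNA per cell cannot be told apart.

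Levels spanned a wide range. Itgb1, the beta chain that pairs with most alpha chains, was the highest of the 36 in all 3 groups, at 64.5 ± 15.1 FPKM (SD, n = 3) in Control, 107 ± 28.3 in AOM/DSS + IgG Ab and 105 ± 11.5 in AOM/DSS + anti-S100a9 Ab. It supplied 41.4% ± 9.75, 48.1% ± 4.25 and 52.6% ± 1.43 of the summed FPKM of the integrin beta genes in these groups (SD, n = 3). The spread between mice was not even. The median coefficient of variation over the 35 tested genes was 22.0% in Control, 35.8% in the IgG Ab group and 18.0% in the anti-S100a9 Ab group. Sample IgG Ab replicate 3 held the highest value of the 9 samples for 14 of the 36 genes, and Control replicate 3 held the lowest for 11.

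AOM/DSS + IgG Ab was compared with Control to ask which adhesion genes differ between tissue labelled adenocarcinoma and normal mucosa. The laminin alpha chains Lama1 and Lama5 and the integrin chains Itgb8 and Itgav rose, and the integrin chain Itga8 and the laminin chain Lamc3 fell. The rises were 4 of 35 genes, or 11.4%, where 8.18% of all 15278 genes were called higher, and the falls were 2 of 35, or 5.71%, where 3.01% of all genes were called lower. Samples of the groups did not overlap for 12 genes with higher values, against 20.7% of all genes, and for 3 with lower values, against 10.2%. The median log2 difference was 0.41 over the 35 genes and 0.09 over all genes. It was 0.67 over the 10 laminin genes and 0.25 over the 25 tested integrin genes. The thresholds of the study (an unadjusted p under 0.05 and more than a 2-fold change) gave the same counts, 4 higher and 2 lower, against 8.43% and 5.19% of all genes. Without IgG Ab replicate 2 limma called 9 genes higher, and without Control replicate 1 or 2, IgG Ab replicate 1 or any anti-S100a9 Ab mouse it called 0 lower.

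AOM/DSS + anti-S100a9 Ab was compared with AOM/DSS + IgG Ab to ask what differs under the antibody against S100a9. Lama1, Lama5, Itgb8 and Itga2b, the alpha chain of the platelet fibrinogen receptor, were called lower. Itga8, Itga4, Lamc3, Itga1 and Itga9 were called higher. The higher calls were 5 of 35 genes, or 14.3%, against 6.72% of all genes, and the lower calls were 4 of 35, or 11.4%, against 14.4% of all genes. Values did not overlap for 8 genes with higher values (18.5% of all genes) and 7 with lower values (28.5% of all genes). The median log2 difference was 0.16 over the 35 genes and -0.06 over all genes, with -0.39 over the laminin genes and 0.21 over the integrin genes. By the thresholds of the study 6 genes were higher and 3 lower, against 7.64% and 8.38% of all genes. Leaving out an anti-S100a9 Ab mouse left 1 or 2 higher and 1 lower gene, and leaving out IgG Ab replicate 1 or 3 also left 1 lower gene. These differences share the IgG Ab samples with the preceding comparison, so that opposite signs in the 2 comparisons are no separate evidence.

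Between AOM/DSS + anti-S100a9 Ab and Control, limma called 0 of the 35 genes in either direction, and of all genes it called 0.00655% higher and 0.00655% lower. At an unadjusted p under 0.05, 12 genes had higher values, or 34.3%, against 8.87% of all genes, and 0 had lower values, against 7.1%. By the thresholds of the study, 6 genes were higher, or 17.1%, against 2.28% of all genes, and 0 were lower, against 0.864%. The 6 were Itga1, Itga2, Itga4, Itga6, Itgav and Itgb8, and the adjusted p of these genes was 0.28 to 0.30. Without Control replicate 3, which had the lowest value for 5 of the 6 genes, 2 genes were past the study's thresholds. Samples did not overlap for 15 genes with higher values in the anti-S100a9 Ab group (17.3% of all genes) and for 0 with lower values (13.7% of all genes). The median log2 difference was 0.45 over the 35 genes, beside 0.04 over all genes.

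**Figure D1:**
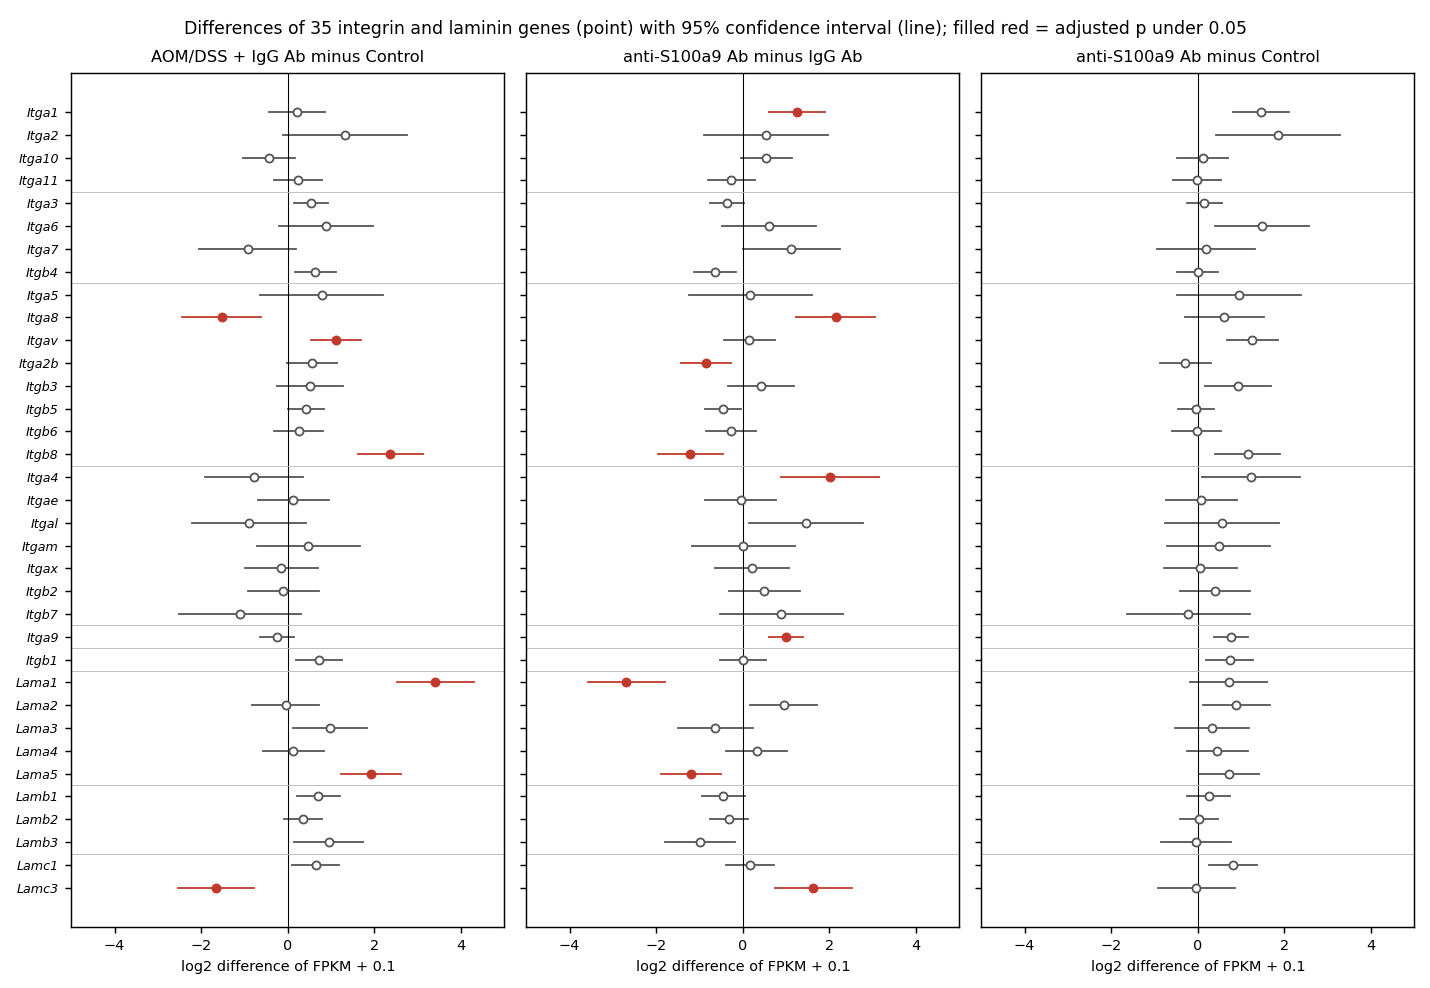
Log2 difference of FPKM + 0.1 (horizontal axis) for each of the 35 tested genes, ordered by role, with its 95% confidence interval from limma, in the 3 comparisons. Filled red points are genes with an adjusted p under 0.05. Lama1, at 3.41 and -2.69, lies farthest from 0 in the first and second panels, and the third panel has no red point.

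Laminin alpha chains carry most of the sites that integrins bind. Lama1 (chromosome 17, 67697259 to 67822647 of GRCm38) encodes the alpha chain of the laminin of early embryos and developing epithelia. It was at 0.228, 0.197 and 0.244 FPKM in the Control mice, 4.81, 1.72 and 4.38 in the IgG Ab mice, and 0.554, 0.311 and 0.452 in the anti-S100a9 Ab mice. The 3 groups did not overlap, with IgG Ab highest and Control lowest. Its log2 difference was 3.41 (SE 0.39, adjusted p = 0.0018 from limma), or 10.6-fold, for IgG Ab against Control, and -2.69 (adjusted p = 0.0062) for anti-S100a9 Ab against IgG Ab. Against Control, the anti-S100a9 Ab value differed by 0.72 with a 95% confidence interval of -0.17 to 1.61 (adjusted p = 0.38).

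Lama5 (chromosome 2, 180176373 to 180225859) encodes the main alpha chain of adult epithelial basement membranes. Its values were 5.98, 6.32 and 4.38 FPKM in Control, 31.0, 13.0 and 23.3 in the IgG Ab group, and 11.1, 8.16 and 8.31 in the anti-S100a9 Ab group. Again no group overlapped another, and the spread was widest in the IgG Ab group. Lama5 rose by 1.92 on the log2 scale (SE 0.31, adjusted p = 0.0072 from limma) in IgG Ab against Control and was 1.21 log2 units lower in anti-S100a9 Ab than in IgG Ab (log2 difference -1.21, adjusted p = 0.028). Leaving out IgG Ab replicate 1, IgG Ab replicate 3 or any mouse of the anti-S100a9 Ab group ended the second call, with adjusted p up to 0.095.

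The 250 bases before the start of Lama5 are shown because Lama5 was the most abundant laminin alpha gene in the IgG Ab samples and the window holds 4 copies of the GC box, a motif read by Sp-family factors. They lie at chr2:180225860-180226109 of GRCm38.p6, on the minus strand, as given by RefSeq, and capitals mark the GC boxes (GGGCGG on either strand). The window is 72.4% G and C.
Lama5: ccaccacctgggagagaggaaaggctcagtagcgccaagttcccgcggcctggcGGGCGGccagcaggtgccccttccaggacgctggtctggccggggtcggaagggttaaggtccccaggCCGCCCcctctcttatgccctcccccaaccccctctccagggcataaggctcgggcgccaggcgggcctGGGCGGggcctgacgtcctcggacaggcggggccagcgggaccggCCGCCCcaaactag
Promoters of 23 of the 36 genes were given, and a GC box lay in 8 of the 23 at the first listed start of each gene. Over the 27025 promoters of all genes, 32.9% held one. The other motifs searched on both strands were the TATA box (TATAAA), the AP-1 site (TGANTCA), the LEF/TCF site (CTTTGAT) and the CArG box, and they were found in 0, 1, 0 and 1 of the 23 windows, against 13%, 6.87%, 3.23% and 1.4% of all promoters. The AP-1 match was in Itgax and the CArG match in Lama2, and another listed start of Itgb6 also had a CArG box before it. These matches describe letters and not bound sites.

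The remaining alpha chains were not called in any comparison. Lama2, the chain of muscle and nerve basement membranes, was at 2.02 ± 0.754 FPKM (SD, n = 3) in Control, 1.91 ± 0.627 in IgG Ab and 3.69 ± 0.675 in anti-S100a9 Ab, and its log2 difference between the antibody groups was 0.94 (adjusted p = 0.078 from limma). Lama3, the alpha chain of the laminin that anchors hemidesmosomes, was at 6.09 ± 1.01, 13.4 ± 8.50 and 7.71 ± 1.52 FPKM, with a log2 difference of 0.97 for IgG Ab against Control (adjusted p = 0.13). Lama4, the chain of vessel walls and stroma, was at 8.05 ± 1.30, 9.44 ± 4.98 and 10.9 ± 1.12 FPKM. Lama3 and Lama4 each had 1 IgG Ab mouse, replicate 3, far above the rest of its group.

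As a share of the summed FPKM of the 5 alpha genes, Lama5 was 25.2% ± 2.71 in Control, 44.8% ± 12.4 in IgG Ab and 28.6% ± 3.64 in anti-S100a9 Ab (SD, n = 3). Lama1 supplied 1.03% ± 0.227, 7.00% ± 1.82 and 1.37% ± 0.360. Lama4 had the opposite order, at 36.6% ± 1.54, 18.8% ± 6.34 and 34.2% ± 2.11. Lama2 also had its lowest share in IgG Ab, with 9.12% ± 3.04, 3.95% ± 1.21 and 11.5% ± 1.53. The summed level itself was 21.9 ± 2.59 FPKM in Control, 50.8 ± 19.0 in IgG Ab and 32.0 ± 2.46 in anti-S100a9 Ab. Shares sum to 100 within a sample, so a larger share of one chain lowers those of the others.

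**Figure D2:**
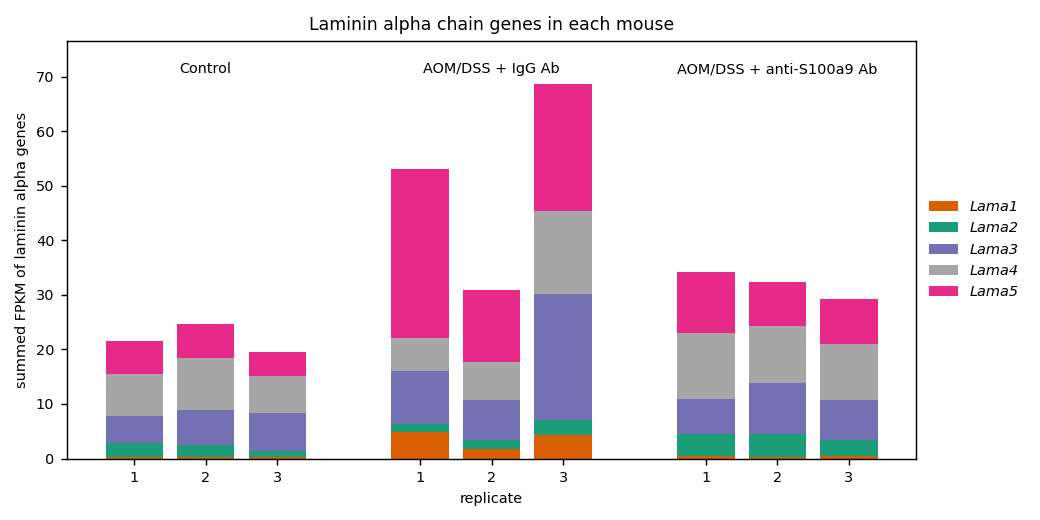
Summed FPKM of the 5 laminin alpha genes in each of the 9 mice (one bar per mouse, segments by gene). The IgG Ab bars are the widest apart, from 30.8 to 68.6 FPKM, and Lama5 is the widest segment in IgG Ab replicate 1, at 58.3% of the bar.

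Of the laminin beta and gamma chains, Lamc3 was the 1 that was called. Lamb3, the beta chain of the hemidesmosomal laminin, was at 37.2, 28.5 and 26.9 FPKM in Control, 50.4, 37.9 and 106 in IgG Ab and 30.1, 37.9 and 22.6 in anti-S100a9 Ab. All IgG Ab values lay above those of the other groups, with replicate 2 close to them, and the log2 differences were 0.94 (adjusted p = 0.12 from limma) against Control and -0.99 (adjusted p = 0.076) for anti-S100a9 Ab against IgG Ab. Lamb1 and Lamb2, the beta chains of most other laminins, and Lamc1, the most widely used gamma chain, were not called, with log2 differences of 0.35 to 0.70 for IgG Ab against Control. Lamc1 was 14.3 ± 4.13 FPKM in Control, 21.9 ± 4.50 in IgG Ab and 24.3 ± 3.05 in anti-S100a9 Ab (SD, n = 3).

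Lamc3 (chromosome 2, 31887291 to 31946539) encodes a gamma chain found in few tissues, among them nerves, and was a low gene here. The 9 values were 0.839, 1.29 and 0.546 FPKM in Control, 0.109, 0.386 and 0.163 in IgG Ab and 0.755, 0.944 and 0.780 in anti-S100a9 Ab. Every IgG Ab mouse lay below every other mouse, while Control and anti-S100a9 Ab overlapped. The log2 difference was -1.66 (SE 0.39, adjusted p = 0.03 from limma) for IgG Ab against Control and 1.63 (adjusted p = 0.024) for anti-S100a9 Ab against IgG Ab. An antisense gene covers 6.27% of its exon bases, and reads of the 2 genes cannot be told apart where the counting ignores strand. The first call passed under 9 of 17 alternative settings and the second under 12 of 17.

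Integrins that bind the Arg-Gly-Asp (RGD) motif recognize fibronectin, vitronectin, osteopontin and the latent form of TGF-beta. In IgG Ab against Control, 2 of the 8 rose and 1 fell, where 8.18% of all genes rose and 3.01% fell. Itgb8 (chromosome 12, 119158022 to 119238802) encodes a beta chain that pairs with Itgav and releases active TGF-beta. It was at 0.499, 0.388 and 0.292 FPKM in Control, 3.44, 1.74 and 2.31 in IgG Ab and 1.22, 0.685 and 1.11 in anti-S100a9 Ab. The groups stood in 3 separate ranges. The log2 difference was 2.36 (SE 0.33, adjusted p = 0.0042 from limma) for IgG Ab against Control, -1.21 (adjusted p = 0.035) for anti-S100a9 Ab against IgG Ab, and 1.15 (95% confidence interval 0.40 to 1.91, adjusted p = 0.30) for anti-S100a9 Ab against Control.

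Itgav (chromosome 2, 83724397 to 83806916), the alpha chain that pairs with Itgb8 and with Itgb3, Itgb5 and Itgb6, had a different pattern from its partner. Its values were 6.91, 5.52 and 3.22 FPKM in Control, 11.4, 9.25 and 12.2 in IgG Ab and 12.2, 12.6 and 11.3 in anti-S100a9 Ab. Both AOM/DSS groups lay above Control and overlapped each other. Itgav rose by 1.11 (SE 0.26, adjusted p = 0.029 from limma) in IgG Ab against Control, and anti-S100a9 Ab against IgG Ab gave a log2 difference of 0.15 with a 95% confidence interval of -0.44 to 0.73. The call was made under 11 of 18 alternatives, with adjusted p from 0.025 to 0.092. An exon of a noncoding gene on the opposite strand covers 5.9% of the exon bases of Itgav. The window before its start, at chr2:83724147-83724396 on the plus strand of GRCm38.p6 (RefSeq), is shown beside that of Lama5 because Itgav was, with it, among the 4 genes that rose, and none of the 5 motifs was found in it.
Itgav: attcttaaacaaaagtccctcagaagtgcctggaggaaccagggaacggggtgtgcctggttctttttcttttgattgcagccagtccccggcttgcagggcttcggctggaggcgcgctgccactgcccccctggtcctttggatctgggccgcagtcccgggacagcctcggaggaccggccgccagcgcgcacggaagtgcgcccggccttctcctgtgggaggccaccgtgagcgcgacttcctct

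Itga8 (chromosome 2, 12106632 to 12301922), the alpha chain of the nephronectin receptor of smooth muscle and mesenchyme, was at 2.21, 2.41 and 1.15 FPKM in Control, 0.279, 0.684 and 0.917 in IgG Ab and 2.82, 3.01 and 2.77 in anti-S100a9 Ab. IgG Ab was lowest without overlap, and anti-S100a9 Ab lay above Control in all 3 mice. The log2 difference was -1.53 (SE 0.40, adjusted p = 0.043 from limma) for IgG Ab against Control and 2.14 (adjusted p = 0.013) for anti-S100a9 Ab against IgG Ab. The fall was called under 8 of 18 alternatives, and the higher value in anti-S100a9 Ab under 17 of 18. An antisense gene covers 5.05% of its exon bases.

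Itga2b (chromosome 11, 102453297 to 102470122) was at 0.603, 0.566 and 0.837 FPKM in Control, 0.924, 1.27 and 0.912 in IgG Ab and 0.472, 0.492 and 0.614 in anti-S100a9 Ab. All IgG Ab values lay above those of the other mice. The log2 difference for anti-S100a9 Ab against IgG Ab was -0.85 (SE 0.26, adjusted p = 0.046 from limma), a call made under 5 of 17 alternatives. The platelet markers Pf4, Ppbp, Gp9 and Gp1ba summed to 8.03 to 8.36 FPKM in Control, 2.34 to 15.0 in IgG Ab and 3.97 to 5.83 in anti-S100a9 Ab. Most of this was Pf4, which myeloid cells can also express, while Gp9, a defining platelet gene, was at no more than 0.203 FPKM. The part of platelets in the difference was not tested.

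The other RGD-binding chains, Itga5, Itgb3, Itgb5 and Itgb6, were not called. Itga5, the fibronectin receptor chain, had the highest coefficient of variation within a group of the 35 tested genes, 85.6% in IgG Ab. It was at 8.71, 26.1 and 63.7 FPKM in the IgG Ab mice, and its log2 difference from Control was 0.78 with a 95% confidence interval of -0.65 to 2.20. Itgb3, the partner of Itga2b and Itgav, was 4.70 ± 0.287 FPKM in Control and 9.22 ± 2.31 in anti-S100a9 Ab (SD, n = 3), a log2 difference of 0.93 (adjusted p = 0.30 from limma). Itgb6, an epithelial partner of Itgav, differed by no more than 0.28 log2 units in size in any comparison.

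**Figure D3:**
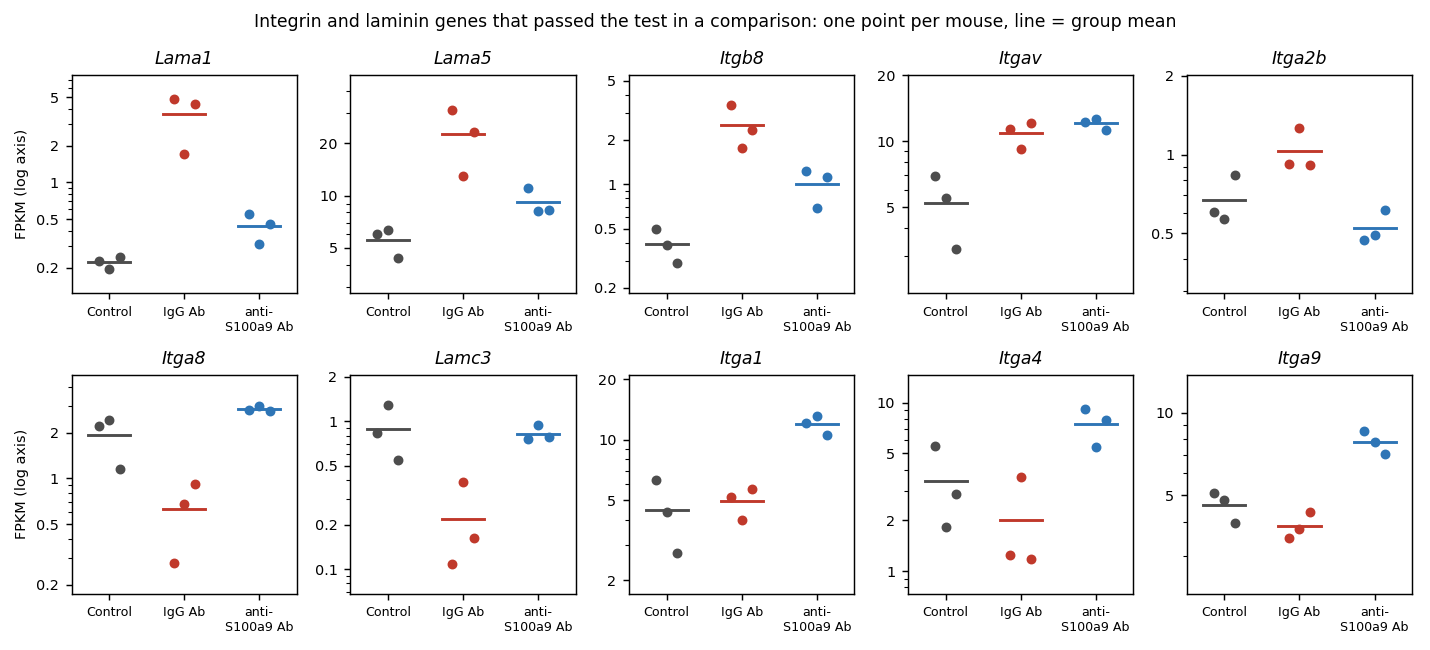
FPKM (log axis) of the 10 genes called in a comparison, one point per mouse, with the group mean as a line. Lama1, Lama5, Itgb8 and Itga2b have their highest group mean in IgG Ab, Itga8, Lamc3, Itga4 and Itga9 have their lowest there, Itgav lies high in both AOM/DSS groups, and Itga1 lies high in anti-S100a9 Ab.

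Laminin-binding integrins join epithelial and muscle cells to the basement membrane. None of Itga3, Itga6, Itga7 and Itgb4 was called. Itgb4, which with Itga6 forms the integrin of hemidesmosomes, was 30.7 ± 2.88 FPKM in Control, 48.3 ± 9.44 in IgG Ab and 31.2 ± 7.45 in anti-S100a9 Ab (SD, n = 3), with log2 differences of 0.64 (adjusted p = 0.084 from limma) and -0.64 (adjusted p = 0.058). Itga3, the chain that pairs with Itgb1 in epithelia, had values of 25.1 ± 1.88, 36.5 ± 5.75 and 28.2 ± 5.39 FPKM in the same order. For both genes all IgG Ab mice lay above all Control mice.

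Itga6 had a different order. It was at 17.8, 13.3 and 4.27 FPKM in Control, 26.3, 19.2 and 12.5 in IgG Ab and 27.6, 30.4 and 26.4 in anti-S100a9 Ab. All anti-S100a9 Ab values lay above all others, the lowest by a narrow margin. Against Control the log2 difference was 1.47 (95% confidence interval 0.39 to 2.56, adjusted p = 0.30 from limma), and against IgG Ab it was 0.60 (-0.48 to 1.68, adjusted p = 0.37). Itga7, the laminin receptor chain of muscle, was 9.20 ± 1.93 FPKM in Control, 5.65 ± 3.79 in IgG Ab and 10.7 ± 2.99 in anti-S100a9 Ab, with overlap in all 3 comparisons.

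Collagen-binding integrins are 4 alpha chains that pair with Itgb1. Itga1 (chromosome 13, 114953096 to 115101964), which binds the collagen of basement membranes and is found on smooth muscle and resident lymphocytes, was at 6.33, 4.37 and 2.75 FPKM in Control, 5.22, 4.0 and 5.67 in IgG Ab and 12.1, 13.1 and 10.6 in anti-S100a9 Ab. The anti-S100a9 Ab mice lay above all others, and Control and IgG Ab overlapped. The log2 difference was 1.26 (SE 0.29, adjusted p = 0.021 from limma) for anti-S100a9 Ab against IgG Ab, and it was 1.46 (95% confidence interval 0.82 to 2.11, adjusted p = 0.28) against Control. Leaving out any single anti-S100a9 Ab mouse ended the first call, with adjusted p up to 0.078. Another annotated gene covers 3.68% of its exon bases on the same strand. The window before Itga1, at chr13:115101965-115102214 on the minus strand, is shown as that of a gene with higher values in anti-S100a9 Ab, and it held none of the 5 motifs.
Itga1: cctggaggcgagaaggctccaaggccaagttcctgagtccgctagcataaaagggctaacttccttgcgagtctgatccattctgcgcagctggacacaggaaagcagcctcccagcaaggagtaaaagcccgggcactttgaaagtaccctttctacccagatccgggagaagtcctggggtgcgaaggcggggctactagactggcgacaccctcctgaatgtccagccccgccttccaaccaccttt

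Itga2, which lies 21 kb from Itga1 and whose product binds fibrillar collagen on epithelium and platelets, was at 1.30, 1.31 and 0.147 FPKM in Control, 2.36, 1.21 and 2.25 in IgG Ab and 3.15, 3.01 and 2.22 in anti-S100a9 Ab. Control replicate 3 was about an order of magnitude below the rest of its group. For anti-S100a9 Ab against Control the log2 difference was 1.86 (95% confidence interval 0.43 to 3.29, adjusted p = 0.30 from limma), and over the alternatives it lay between 1.02 and 2.28. Itga10 and Itga11, the collagen receptors of cartilage and fibroblasts, were at 0.254 to 0.416 FPKM and at 1.46 to 1.82 FPKM as group means and were not called. Of the exon bases of Itga10, 33.5% are shared with another annotated gene on its strand.

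Leukocyte integrins govern the traffic of blood cells. Of the 7 tested, 1 was called, higher in anti-S100a9 Ab than in IgG Ab, as were 6.72% of all genes. This was Itga4 (chromosome 2, 79255426 to 79333123), which pairs with Itgb7 to bind MAdCAM-1 on gut vessels and with Itgb1 to bind VCAM-1. It was at 5.53, 1.83 and 2.87 FPKM in Control, 1.24, 3.63 and 1.17 in IgG Ab and 9.13, 5.48 and 7.88 in anti-S100a9 Ab. All anti-S100a9 Ab mice lay above all IgG Ab mice, whereas Control replicate 1 overlapped them by a small margin. The log2 difference was 2.01 (SE 0.50, adjusted p = 0.027 from limma) for anti-S100a9 Ab against IgG Ab, and 1.22 (95% confidence interval 0.09 to 2.36, adjusted p = 0.30) against Control. Leaving out IgG Ab replicate 1, IgG Ab replicate 3 or any anti-S100a9 Ab mouse ended the call, with adjusted p up to 0.089. Exons of Cerkl on the opposite strand cover 8.04% of the exon bases of Itga4. The window before Itga4, at chr2:79255176-79255425 on the plus strand, is shown for comparison with that of Itga1 and has 1 GC box, in capitals.
Itga4: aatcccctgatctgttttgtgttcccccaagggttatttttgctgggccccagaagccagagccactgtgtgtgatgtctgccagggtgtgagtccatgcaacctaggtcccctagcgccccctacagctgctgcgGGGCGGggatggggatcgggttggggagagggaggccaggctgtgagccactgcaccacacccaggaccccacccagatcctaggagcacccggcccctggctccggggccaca

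Itgb7, the partner of Itga4 and Itgae, was at 17.7, 5.94 and 24.4 FPKM in Control, 6.32, 13.4 and 2.92 in IgG Ab and 15.2, 8.27 and 13.0 in anti-S100a9 Ab. The groups overlapped in all comparisons, and the log2 difference for IgG Ab against Control was -1.11 (95% confidence interval -2.52 to 0.30, adjusted p = 0.27 from limma). Itgal, the alpha chain of LFA-1, was 3.88 ± 2.16 FPKM in Control, 2.05 ± 1.42 in IgG Ab and 5.19 ± 1.57 in anti-S100a9 Ab (SD, n = 3), with a log2 difference of 1.46 (adjusted p = 0.10) between the antibody groups. Itgam and Itgax, the alpha chains of myeloid cells, and Itgb2, their shared beta chain, differed by no more than 0.50 log2 units in any comparison. A predicted gene shares 68.7% of the exon bases of Itgam, so its value is uncertain. Itgae, the chain of lymphocytes within the epithelium, was 1.72 ± 0.343, 2.02 ± 0.899 and 1.83 ± 0.370 FPKM.

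Lymphocyte markers varied in the same samples. The 6 T cell markers in the files summed to 9.52 to 58.3 FPKM in Control, 8.74 to 31.4 in IgG Ab and 28.1 to 52.0 in anti-S100a9 Ab. Of the 6, 1, Cd4, was called higher in anti-S100a9 Ab than in IgG Ab, as were 6.72% of all genes. The 5 B cell markers summed to 25.3 to 235 FPKM, 7.39 to 107 and 48.5 to 195, and 0 of 5 were called. At an unadjusted p under 0.05, 3 were higher in anti-S100a9 Ab than in IgG Ab, where 39.1% of all genes passed in either direction. Within Control, replicate 2 was lowest for both sums and for Itga4, Itgal and Itgb7, and within IgG Ab, replicate 2 was highest for all 5. None of these markers was near 0 in all mice. The part of lymphocyte number in the values of Itga4, Itgal and Itgb7 was not tested.

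**Figure D4:**
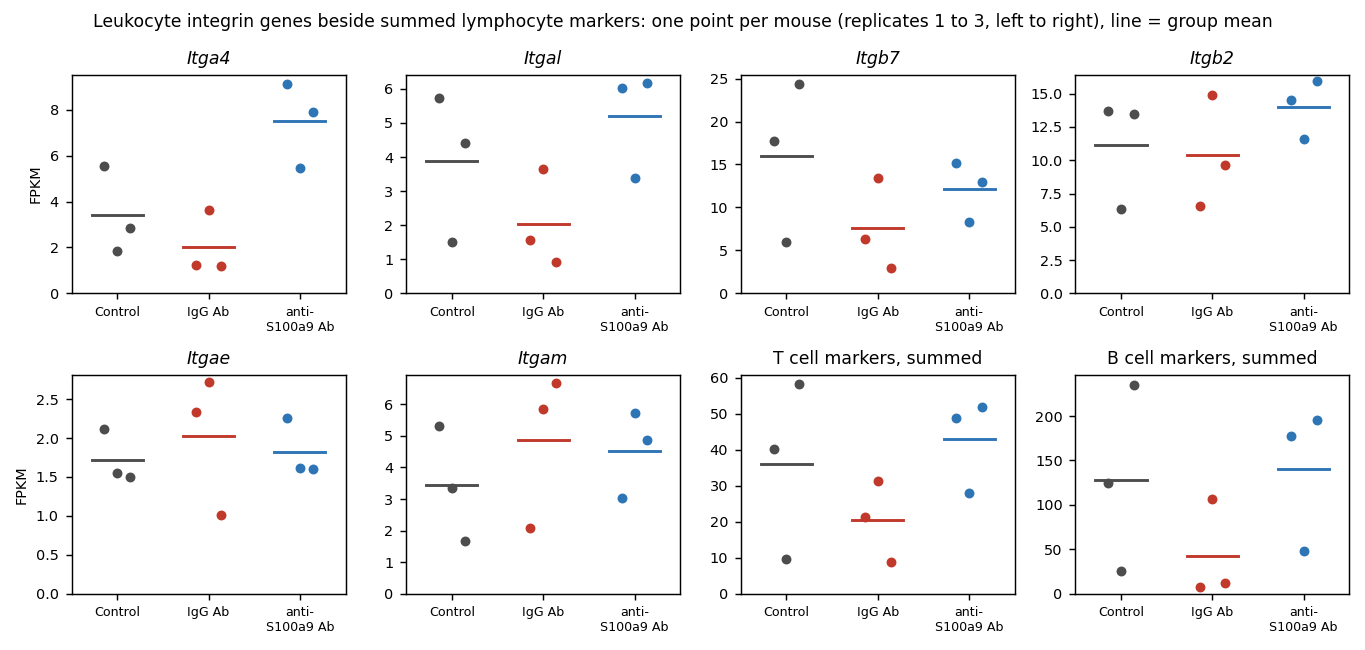
FPKM of 6 leukocyte integrin genes and of summed T cell and B cell markers, one point per mouse in the order of replicates 1 to 3, with the group mean as a line. Replicate 2 is the lowest Control mouse and the highest IgG Ab mouse for Itga4, Itgal, Itgb7 and both marker sums.

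Itga9 (chromosome 9, 118606690 to 118901003), an alpha chain that pairs with Itgb1 and binds tenascin, osteopontin and VCAM-1 on smooth muscle, lymphatic vessels and neutrophils, was at 5.09, 4.79 and 3.96 FPKM in Control, 3.48, 3.75 and 4.35 in IgG Ab and 8.61, 7.81 and 7.10 in anti-S100a9 Ab. The anti-S100a9 Ab mice lay above all others, with little spread. The log2 difference against IgG Ab was 1.00 (SE 0.17, adjusted p = 0.01 from limma), a call kept under all 18 alternatives. Against Control it was 0.76 (95% confidence interval 0.37 to 1.15, adjusted p = 0.30). Itgb1, the shared beta chain, had log2 differences of 0.72 (adjusted p = 0.083) and 0.73 (adjusted p = 0.30) from Control in the IgG Ab and anti-S100a9 Ab groups, and 0.01 between them, with a 95% confidence interval of -0.53 to 0.55.

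In anti-S100a9 Ab against IgG Ab, the markers of muscle and nerve differed in the same direction as Itga8, Lamc3, Itga1 and Itga9, with positive log2 differences for 8 of 8 smooth muscle markers and 5 of 5 nerve markers. In IgG Ab against Control every one of these markers had a negative value, as did Itga8, Lamc3 and Itga9 (-0.25), while Itga1 had 0.21. There limma called 0 of the 8 and 0 of the 5, and 1 and 5 had an unadjusted p under 0.05, as had 29.5% of all genes in either direction. The 8 smooth muscle markers summed to 1842 to 2923 FPKM in Control, 532 to 3310 in IgG Ab and 2298 to 4162 in anti-S100a9 Ab, and 2 of 8 (Myh11 and Synpo2) were called higher in anti-S100a9 Ab than in IgG Ab (6.72% of all genes). For this sum IgG Ab replicate 3 lay within the range of the anti-S100a9 Ab mice, and the other IgG Ab mice lay below it. The 5 markers of enteric neurons and glia summed to 4.09 to 8.19 FPKM, 1.01 to 3.25 and 5.85 to 8.72, without overlap between IgG Ab and the other groups, as for Itga8 and Lamc3. Of these, 3 of 5 were called higher in anti-S100a9 Ab than in IgG Ab (6.72% of all genes). The part of muscle or nerve tissue in these differences was not tested.

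Markers of squamous epithelium moved with Lama1, Lama5 and Itgb8. The sum of the 8 was 1.07 to 2.97 FPKM in Control, 9.16 to 52.2 in IgG Ab and 1.67 to 3.48 in anti-S100a9 Ab, and 4 of the 6 tested were called higher in IgG Ab than in Control (8.18% of all genes). Most of it was Krt14, at 37.1, 4.63 and 18.6 FPKM in the IgG Ab mice, and the defining squamous genes Trp63 and Sprr1b had highest values of 0.0223 and 0.0577 FPKM over the 9 mice, a level at which a failed estimate cannot be told from a low one. Among the IgG Ab mice, replicate 1 was highest for Lama1, Lama5 and Itgb8 and for Krt14, Krt15, Dsg3 and Dsc3, whereas replicate 3 was highest for Krt5 and Krt6a. Of 7 fibroblast markers, 4 were called higher in IgG Ab than in Control (8.18% of all genes), with sums of 368 to 419 FPKM in Control, 453 to 1354 in IgG Ab and 493 to 625 in anti-S100a9 Ab. Neutrophil markers other than Ly6g differed in the same direction. Of all 7 neutrophil markers, 5 were called higher in IgG Ab than in Control and 4 lower in anti-S100a9 Ab than in IgG Ab. The shares over all genes were 8.18% and 14.4%. Median log2 differences of the 7 were 3.39 and -1.11, and their sums were 90.8 to 121, 134 to 686 and 102 to 179 FPKM. Within the IgG Ab group the order of the mice was not that of Lama1, Lama5 and Itgb8. Replicate 1, highest for these genes, had the lowest neutrophil sum (133.6 FPKM, against 449.2 and 685.5). It also had the lowest fibroblast sum (453 FPKM, against 1354 and 1030). S100a9, the target of the antibody, was at 0.371, 0.859 and 0.575 FPKM in Control, 63.1, 173 and 267 in IgG Ab and 10.3, 11.6 and 5.54 in anti-S100a9 Ab. Of the defining neutrophil genes, Ly6g was not called and differed in the opposite direction, with log2 differences of -0.74 and 0.94. It was at 88.8 to 117 FPKM in Control, 26.1 to 96.0 in IgG Ab and 82.1 to 150 in anti-S100a9 Ab, and made up most of the Control sums. Mpo was at no more than 0.159 FPKM. The part of these cells and tissues in the rise of Lama1, Lama5 and Itgb8 was not tested.

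Ratios of chains within a mouse compare partners or substitutes at the level of RNA. They are log2 ratios of FPKM + 0.1, tested with two-sided exact permutation tests, in which 3 mice against 3 cannot give a p below 0.1 (adjusted p = 0.2308 over 30 tests of 10 ratios). No ratio could therefore pass the threshold. The groups did not overlap for 3 of 10 ratios in IgG Ab against Control, 7 in anti-S100a9 Ab against IgG Ab and 3 in anti-S100a9 Ab against Control. The ratio of Itgb8 to Itgav was -3.55, -3.53 and -3.08 in Control, -1.70, -2.35 and -2.35 in IgG Ab and -3.22, -4.02 and -3.23 in anti-S100a9 Ab. It was thus higher in every IgG Ab mouse than in any other. The ratio of Lama5 to Lama2 had the same order, with differences of 1.97 for IgG Ab against Control and -2.15 for anti-S100a9 Ab against IgG Ab.

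Another set of ratios stood apart in anti-S100a9 Ab. The ratio of Itga6 to its hemidesmosomal partner Itgb4 was -0.64, -1.33 and -2.82 in Control, -0.89, -1.0 and -2.19 in IgG Ab and -0.22, -0.33 and 0.18 in anti-S100a9 Ab. All anti-S100a9 Ab values were the highest, with differences of 1.48 from Control and 1.24 from IgG Ab. For Itga4 to Itgb7 the anti-S100a9 Ab values, -0.73, -0.59 and -0.72, were likewise above all others, with differences of 1.44 and 1.11.

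**Figure D5:**
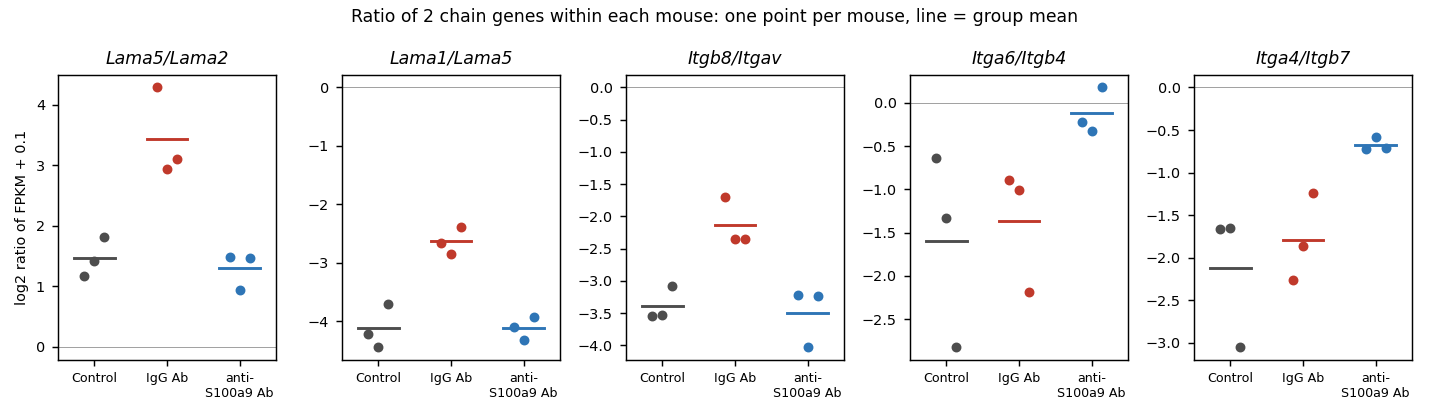
Log2 ratio of 2 chain genes within each mouse (FPKM + 0.1), one point per mouse, with the group mean as a line. The IgG Ab mice lie apart from both other groups for Lama5/Lama2, Lama1/Lama5 and Itgb8/Itgav, and the anti-S100a9 Ab mice lie apart for Itga6/Itgb4 and Itga4/Itgb7.

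The partners of these chains were counted from 3 lists. Over all genes, 8.18% rose and 3.01% fell in IgG Ab against Control, and 6.72% were higher and 14.4% lower in anti-S100a9 Ab against IgG Ab. Of 24 genes for proteins that join integrins to the cytoskeleton inside the cell, 0 were called in IgG Ab against Control (3 were lower at an unadjusted p under 0.05) and 5 were called higher, with 0 lower, in anti-S100a9 Ab against IgG Ab. The largest differences were those of Tns1 (tensin, which binds the tails of beta chains; log2 difference 1.90, adjusted p = 0.022 from limma), Lims2 (a PINCH adaptor; 1.63, adjusted p = 0.045) and Flna (filamin A, a crosslinker of actin; 1.37, adjusted p = 0.018). Their values in IgG Ab were lowest in replicate 1 and highest in replicate 3, as were those of the smooth muscle sum. The talin gene Tln1 and the kindlin gene Fermt2, named after their values were seen, were the other 2, with log2 differences of 0.51 and 0.79. The median over the list was 0.10 for IgG Ab against Control and 0.35 for anti-S100a9 Ab against IgG Ab, beside 0.09 and -0.06 over all genes.

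Of 18 tested genes for the other proteins of basement membranes and hemidesmosomes, 8 rose and 1 fell in IgG Ab against Control, where 8.18% and 3.01% of all genes did. In anti-S100a9 Ab against IgG Ab, 3 were higher and 5 lower, where 6.72% and 14.4% of all genes were. The median log2 differences of the list were 0.68 and -0.30, beside 0.09 and -0.06 over all genes. Col17a1, a transmembrane collagen of hemidesmosomes, rose by 3.01 (adjusted p = 0.016 from limma). Smoc2, a matricellular protein also known from intestinal stem cells, rose by 2.28 (adjusted p = 0.026), and Col18a1, which carries endostatin, rose by 2.25 (adjusted p = 0.0056). In anti-S100a9 Ab against IgG Ab the log2 differences of Col17a1 and Smoc2 were -2.80 and -2.49 (adjusted p = 0.017 for both). Col4a6, a collagen IV chain of smooth muscle basement membranes, was the gene that fell, by 1.78 (adjusted p = 0.017), and it was higher by 2.16 in anti-S100a9 Ab than in IgG Ab (adjusted p = 0.0089).

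Among 19 tested ligands of integrins other than laminins, 5 rose and 0 fell in IgG Ab against Control, where 8.18% and 3.01% of all genes did. In anti-S100a9 Ab against IgG Ab, 1 was higher and 4 were lower, where 6.72% and 14.4% of all genes were. The median log2 differences were 0.55 and -0.33, beside 0.09 and -0.06 over all genes. Spp1 (osteopontin, an RGD ligand) was at 0.285, 0.214 and 0.397 FPKM in Control, 51.8, 17.9 and 21.4 in IgG Ab and 0.760, 0.477 and 1.12 in anti-S100a9 Ab, and its log2 differences were 6.12 and -5.01 (adjusted p = 0.00031 and 0.0012 from limma). Thbs1 (thrombospondin) rose by 3.28 (adjusted p = 0.002) and Npnt (nephronectin, the ligand of the receptor that holds Itga8) by 2.91 (adjusted p = 0.0025). In anti-S100a9 Ab against IgG Ab their log2 differences were -1.97 and -2.66 (adjusted p = 0.015 and 0.0051 from limma). Npnt was thus highest in the group in which Itga8 was lowest. Vcam1, the ligand of Itga4 and Itga9 on endothelium and stroma, was the 1 ligand called higher in anti-S100a9 Ab, at 3.93, 9.54 and 9.47 FPKM in IgG Ab and 17.9, 15.0 and 20.4 in anti-S100a9 Ab (log2 difference 1.30, adjusted p = 0.03). Vcam1 was not among the 3 largest called differences of this list and was named after its values were seen. Several genes of the lists, among them Spp1, Thbs1, Npnt, Lama1, Lama5 and Itgb8, belong to the pathway genes that the study picked on these same samples, so their directions are not independent evidence. Between anti-S100a9 Ab and Control, 0 of the 61 tested genes of the 3 lists were called by limma, and 12, all with higher values in anti-S100a9 Ab, had an unadjusted p under 0.05, where 8.87% of all genes had higher and 7.1% lower values at that threshold.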

How the data were processed

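Colon RNA of 9 mice was measured, and the authors deposited a table of 21544 rows per mouse with 1 decimal value each, read here as FPKM from the size and the unequal sums of the values, since no unit is written in the files. The submitters' processing notes name TopHat, Cufflinks, HTSeq, DESeq and GRCm38, without roles or versions. The DESeq test of the study needs counts and was not repeated. Groups were taken from the sample labels, which call the mice biological replicates. The genes and lists were chosen with earlier results of these data known. Rows with the same symbol were summed. log2(FPKM + 0.1) was fitted with limma 3.58.1 in R 4.3.3, with group as the only term, all 9 samples, an intensity trend and 8.87 degrees of freedom, and p-values were adjusted by the Benjamini-Hochberg method over 15278 genes. The script was tested on simulated data. Correlations of log2 values were 0.917 to 0.970 within groups, and at most 0.00638% of positive values of a pair of samples were identical.

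Values in every sample are given for genes called in any comparison and for the 3 most positive and 3 most negative differences of each comparison. Of the partner lists, the called genes with the 3 largest differences in a comparison are named. Tln1, Fermt2 and Vcam1 lie outside this rule and were named after their values were seen. Alternatives covered the pseudocount, the filter, the scaling, the intensity trend, a fit of 2 groups, a block for the replicate number, the thresholds of the study and leaving out each mouse. Gene positions and exon overlaps are from GENCODE M21 on GRCm38, and promoters are from RefSeq on GRCm38.p6. Exon overlaps over 10% were found for 3 of the 36 genes, namely Itga10, Itgad and Itgam. Single ratios were tested with scipy 1.17.1, and tables and figures were made with pandas 2.3.3, numpy 2.4.6 and matplotlib 3.10.9 in Python 3.11.15.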

Additional observations from a re-analysis of the deposited data

How the results depend on the processing

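The calls of Lama1, Lama5 and Itgb8 in IgG Ab against Control, and of Lama1 and Itga9 in anti-S100a9 Ab against IgG Ab, were kept under all 18 alternatives. The 2 lower genes in IgG Ab against Control became 1 with no filter, 1 with a filter at 1 FPKM and 0 in a fit of the 2 groups alone, and 0 to 2 with a mouse left out. The 4 higher genes became 3 to 9 with a mouse left out, and 9 without IgG Ab replicate 2. In anti-S100a9 Ab against IgG Ab, the 5 higher genes became 1 to 6 and the 4 lower genes 1 to 5 with a mouse left out (1 higher gene without anti-S100a9 Ab replicate 2, and 1 lower gene without any mouse of that group or without IgG Ab replicate 1 or 3), and the lower genes became 2 in a fit of the 2 groups alone. Against Control, 0 genes were called higher in anti-S100a9 Ab under every alternative except the thresholds of the study, which gave 6, and that count, whose alternatives were added after the data were seen, was 2 to 7 with a mouse left out, 2 being without Control replicate 3. With a pseudocount of 1, the ratios without overlap went from 3 to 1 in IgG Ab against Control and from 3 to 5 in anti-S100a9 Ab against Control, and the former was 3 to 5 with a mouse left out. In anti-S100a9 Ab against Control, Itgb7 (-0.22) ranged from -0.81 to 0.20 with a mouse left out, positive without Control replicate 3 (0.20) or anti-S100a9 Ab replicate 2 (0.035). Lamb3 (-0.05) ranged from -0.23 to 0.14, positive without Control replicate 1 (0.093) or anti-S100a9 Ab replicate 3 (0.14), and was 0.028 with quantile normalization. The cause of these changes was not tested. Median-of-ratios scaling and quantile normalization moved the median log2 difference of all genes in IgG Ab against Control from 0.09 to -0.01 and -0.03, and the same 6 genes were called.

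The replicate numbers of the labels are shared between groups, with no statement that they pair the mice. Deviations from the group mean of same-numbered mice correlated at -0.187 to 0.249, over 0.1 in 5 of 9 pairs. Mice with different numbers correlated at -0.267 to 0.19. These correlations cannot show whether the numbers stand for a batch or a pairing. With the replicate block, 1 gene instead of 2 was lower in IgG Ab against Control. The other counts of called genes stayed within 1.5 times.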
